A study of Mus musculus with 4 samples.

Results

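The genes of interferon ligands and receptor chains were followed in polyA-plus RNA-seq of mouse bone-marrow-derived macrophages. They were chosen by symbol, 8 out of 55536 annotated genes, without reference to their levels. They comprise the ligand genes Ifnb1, Ifna4 and Ifng, the type I receptor chains Ifnar1 and Ifnar2, the type II receptor chains Ifngr1 and Ifngr2, and Ifnlr1, the ligand-binding chain of the type III receptor. All 8 had a row in the deposited gene tables. The series holds 4 libraries in 1 group. Macrophages were grown from the bone marrow of C57BL/6J mice, received 100 ng/ml lipid A for 12 h, were kept for 12 h after its removal, and were taken at 0 min of a second lipid A exposure, that is before it acted. Lipid A is the part of bacterial lipopolysaccharide that Tlr4 senses. Other label fields call the first agent lipoprotein A. No untreated cells belong to the group, so no value here is an effect of lipid A. The replicates carry the same donor identifier, and p-values over them measure only the spread between these libraries.

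Interferons are secreted cytokines that switch on antiviral and antibacterial genes. Type I interferons, which include interferon beta and the many interferon alphas, bind Ifnar1 and Ifnar2; type II interferon, the product of Ifng, binds Ifngr1 and then Ifngr2; type III interferons bind Ifnlr1 together with Il10rb. The receptor chains carry the kinases Jak1, Tyk2 and Jak2, which phosphorylate transcription factors of the Stat family, Stat2 among them. In macrophages, Tlr4 induces Ifnb1 through the adaptor Ticam1, the kinase Tbk1 and the factor Irf3, and the secreted interferon beta then acts back on the cells through the type I receptor.

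The 4 libraries held 25594340 to 57126810 gene counts. A gene with no counts may still have up to 3, which at these depths is 0.117, 0.110, 0.0614 and 0.0525 CPM (counts-per-million) in replicates 1 to 4; such limits and the intervals on counts cover counting error only. The notes deposited with the tables list 6 read files each for replicates 1 and 2 and 4 each for replicates 3 and 4. Depth, the share of counts from mitochondrial genes (0.778% and 1.16% against 3.34% and 3.00%) and the ratio of the totals in the 2 quantifications of the series (1.31 and 1.32 against 1.07 and 1.06) all separated the libraries along the same line. What the number of read files reflects is not known, and these properties cannot be told apart. Macrophage markers summed to between 14849 and 17539 TPM (transcripts-per-million), led by Lyz2, the macrophage lysozyme. TPM are scaled by transcript length and can therefore be compared between genes. In bulk RNA, fewer cells that express a gene and less of its RNA per cell cannot be told apart.

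The type I ligand genes differed in detection: Ifnb1 had reads in every library and Ifna4 in none. The 250 bases that precede their RefSeq start sites are shown because transcription of these genes is known to depend on NF-kB and interferon regulatory factors (IRFs) bound there. Each sequence is RefSeq's, on GRCm38.p6, 5′ to 3′ on the gene's strand; Ifnb1 lies on the minus strand at chr4:88522795-88523044 and Ifna4 on the plus strand at chr4:88841566-88841815. Capitals mark matches, searched on both strands, to the NF-kB consensus, to the IRF half-site AANNGAAA and to TATAAA.
Ifnb1: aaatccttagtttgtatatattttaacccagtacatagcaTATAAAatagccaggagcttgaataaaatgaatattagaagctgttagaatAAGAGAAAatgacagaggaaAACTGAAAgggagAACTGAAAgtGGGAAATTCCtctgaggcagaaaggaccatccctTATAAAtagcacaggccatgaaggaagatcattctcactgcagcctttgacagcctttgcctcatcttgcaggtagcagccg
Ifna4: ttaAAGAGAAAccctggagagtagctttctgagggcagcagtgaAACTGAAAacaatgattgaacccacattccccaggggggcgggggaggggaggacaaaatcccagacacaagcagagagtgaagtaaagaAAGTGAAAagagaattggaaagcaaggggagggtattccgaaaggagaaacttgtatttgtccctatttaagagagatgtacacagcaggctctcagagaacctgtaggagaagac

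The Ifnb1 window held 3 IRF half-sites, whose first bases lay 159, 139 and 126 bases before the start, and an NF-kB site 116 bases before it. The Ifna4 window held 3 IRF half-sites, at 247, 206 and 116 bases, and no match to the NF-kB consensus. No matches overlapped, and all in these 2 windows lay on the gene's strand. Among 32851 promoter windows of this length, 3.90% held the NF-kB consensus, 21.3% held AANNGAAA and 12.4% held TATAAA. The Ifng window had 1 IRF half-site and 1 match to TATAAA, and of the 5 receptor windows only that of Ifngr2 held a match, to the NF-kB consensus on the opposite strand. By base composition the ligand windows were at 39.6% (Ifnb1), 46.8% (Ifna4) and 45.2% (Ifng) GC, below the median of 52.4%, whereas the receptor windows ranged from 54% (Ifnar2) to 74% (Ifngr2). A match is a description of the letters and says nothing of binding in these cells.

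Interferon beta RNA was present at a low level 12 h after lipid A had been removed. Ifnb1 (ENSMUSG00000048806.4), the interferon first made after Tlr4 signalling, spans chr4:88522025-88522774 in mm10 on the minus strand. Its level was 11.58, 7.57, 3.30 and 1.27 TPM in replicates 1 to 4, from 98, 69, 56 and 25 counts. Replicates 1 and 2 were the higher ones, and the share of all genes that separate in this way was not determined. Scaled to depth, replicate 1 had 3.83 CPM (95% exact Poisson interval 3.11 to 4.67), replicate 2 had 2.52 (1.96 to 3.19), replicate 3 had 1.15 (0.866 to 1.49) and replicate 4 had 0.438 (0.283 to 0.646). Apart from those of replicates 1 and 2, the intervals did not overlap, so the libraries differed by more than counting error. The kallisto-layout tables gave the same order, with 12.5, 7.95, 4.76 and 1.42 TPM. At a mean of 5.93 ± 4.59 TPM (SD, n = 4), Ifnb1 was lower than the median of 17.5 TPM over the 10292 nuclear protein-coding genes with a mean of at least 1 TPM.

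The other ligand genes were at or near 0. Ifna4 (chr4:88841861-88842421), an interferon alpha that is induced early, had 0 counts in all 4 libraries in both quantifications. Its upper limits are thus those given for an empty gene, 0.0525 CPM in the deepest library and 0.117 CPM in the shallowest. Ifng (chr10:118441046-118445892), which T cells and NK cells are known for making, had 2, 3, 4 and 0 counts. Replicates 1 to 3 thus stood within a few counts of the empty replicate 4, and no difference was detectable at this depth. The only annotated gene that overlaps Ifng, Gm49751, was listed at 0. Of 18 further ligand genes, 15 had 0 counts in all libraries, among them the type III genes Ifnl2 and Ifnl3. The remaining Ifnk, Ifna2 and Ifnz had counts in replicate 4 only, and the 18 genes together had 0, 0, 0 and 3 counts. Reads of the near-identical interferon alpha genes can be split among copies. In the gene tables only Ifna2 among them had a count, 1 in replicate 4. How reads that match several copies were counted is not known, so these sums do not exclude lost reads.

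Markers of the cells known for making these ligands were uneven. The 13 T and NK cell markers summed to 2.32, 0.03, 1.96 and 0.18 TPM, with Nkg7, a granule protein, the highest at 0.245 ± 0.349 TPM. Replicates 1 and 3 were the higher ones. The 7 plasmacytoid dendritic cell markers summed to between 40.5 and 52.2 TPM, led by Tcf4 at 36.8 ± 7.57 TPM, a transcription factor also used by other cells. Cox6a2, a mitochondrial enzyme subunit on that list, had 7.01, 12.02, 4.26 and 7.55 TPM, while the surface marker Siglech had 0.238 ± 0.128 TPM. Neutrophil markers, led by S100a9, summed to 90.5, 14.2, 80.1 and 6.98 TPM, high in replicates 1 and 3. B cell markers, led by Cd79b, summed to 2.55 to 4.21 TPM, and epithelial markers, led by Cdh1, to 0.04 to 0.11 TPM. The part of these cells in the ligand values was not tested.

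**Figure D1:**
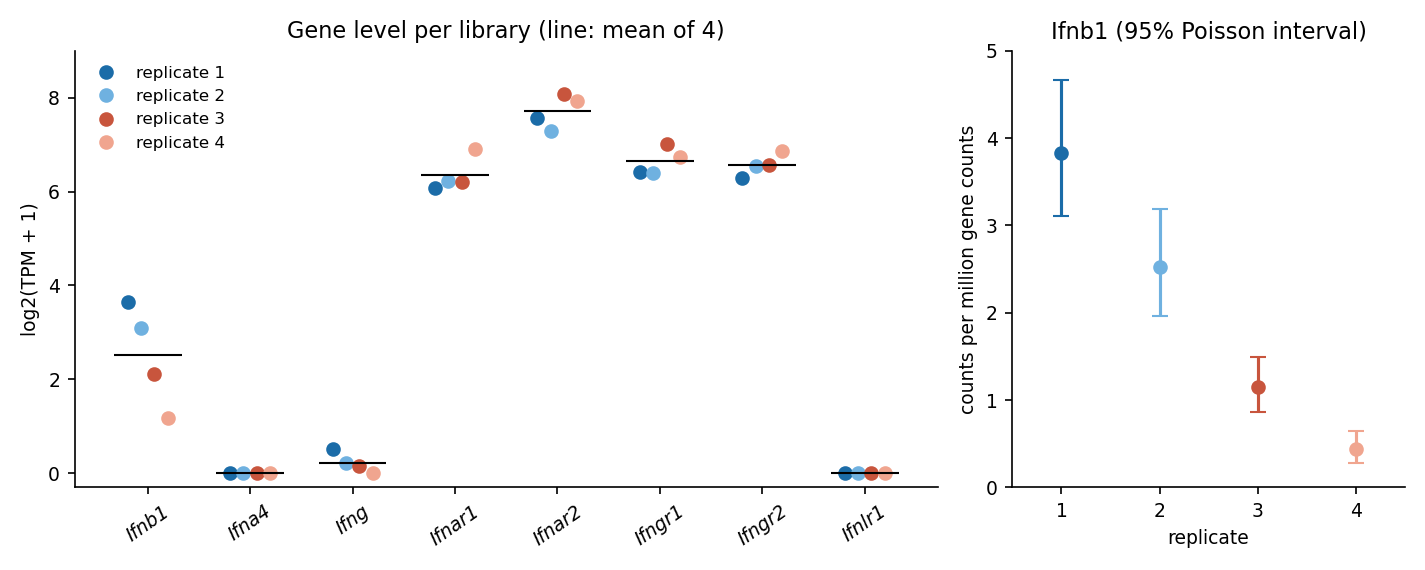
Left, log2(TPM + 1) of the 8 genes (x axis) in each of the 4 libraries (points, coloured by replicate), with the mean of the 4 as a line. Right, Ifnb1 in CPM per replicate, with 95% exact Poisson intervals. The 4 type I and type II receptor genes stand far above the ligands, Ifna4 and Ifnlr1 lie at 0, and Ifnb1 runs from 3.83 CPM in replicate 1 to 0.438 CPM in replicate 4.

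Against this scarcity of ligand RNA, the chains of the type I and type II receptors were well expressed in every library. Ifnar2 (chr16:91372783-91405589), the chain that binds type I interferon most tightly, was the highest. It had 188.27, 155.39, 270.95 and 242.30 TPM, or 214 ± 52.1 (SD, n = 4), which ranks it 620 among 22015 nuclear protein-coding genes. Ifngr1 (chr10:19591949-19610229), which binds interferon gamma, had 84.57, 82.85, 128.10 and 106.13 TPM. For both genes, and for Ifngr2 given next, replicates 3 and 4 stood above replicates 1 and 2. The test of this split, given below, called none of these genes. What share of all genes separates in this way was not determined. Ifngr2 (chr16:91547072-91565623), the chain that joins the type II receptor to Jak2, had 76.69, 92.75, 93.36 and 115.65 TPM. Ifnar1 (chr16:91485238-91507441), the chain that carries Tyk2, had 66.54, 73.83, 73.05 and 118.70 TPM. In TPM its replicate 4 stood apart from the other 3, which lay within a few TPM of each other. In counts scaled by TMM normalization replicate 4 did not stand apart, with 173, 159, 133 and 175 CPM in replicates 1 to 4.

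Taken over all transcripts of a gene, Ifnar2 exceeded each of the other 3 chains, and the 3 pairs among the others kept no common sign over the libraries. A pair is given as the log2 ratio of TPM + 1 within a library. Ifnar2 exceeded Ifngr1 by 1.08 ± 0.13 (SD, n = 4) and Ifngr2 by 1.15 ± 0.34, and Ifnar1 lay below Ifnar2 with a ratio of -1.36 ± 0.40. Each of these had the same sign in all 4 libraries. The two-sided exact sign-flip permutation test gave p = 0.125 for each, the smallest value that 4 libraries allow, and 0.219 after Benjamini-Hochberg adjustment over the 7 pairs. Ifnar1 over Ifngr1 (-0.29 ± 0.40), Ifnar1 over Ifngr2 (-0.21 ± 0.18) and Ifngr1 over Ifngr2 (0.08 ± 0.28) changed sign between libraries. In the kallisto-layout tables, however, Ifnar1 lay below Ifngr2 in all 4 libraries (-0.47). The order of Ifngr1 against the other 2 changed between libraries in the gene tables.

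Of the type III receptor, only the shared chain was well expressed. Ifnlr1 (chr4:135686287-135708181), known mainly from epithelium, was listed at 0 in every library in the gene tables. The kallisto-layout tables assigned it 1.51, 0, 8.91 and 2.18 estimated counts, at most 0.0622 TPM. Unlike for Ifna4, the value of replicate 3 there exceeded the limit of 3 counts for an empty gene. Il10rb (chr16:91406164-91425834), which serves the receptors of interleukin 10 and interferon lambda alike, had 289, 270, 365 and 376 TPM. It was higher than any of the 8 genes in each library. The pair value of Ifnlr1 over Il10rb was -8.33 ± 0.24, a size set by the pseudocount of 1 because Ifnlr1 was at 0. Among the class II cytokine receptors outside the interferon system, Il10ra, the partner of Il10rb in the interleukin 10 receptor, had 92.7 ± 8.35 TPM and Il20rb 1.25 ± 0.653 TPM. Il20ra, Il22ra1 and Il22ra2 had 0 counts in all libraries.

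Of these receptor genes, 4 lie side by side on chromosome 16. In the order Ifnar2, Il10rb, Ifnar1 and Ifngr2 they take up 193 kb that hold 12 annotated genes, each of the 4 on the plus strand. None of the other 8 genes in the interval had a mean above the 1.03 TPM of A930006K02Rik, a processed transcript between Il10rb and Ifnar1. Gm21970, annotated across parts of Ifnar2 and Il10rb, had 0.275 TPM. Reads it shares with those genes cannot be assigned with certainty.

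The high level of Ifnar2 lay mostly in a short transcript. The forms part after exon 7, and the sequences show where: 30 bases of exon 7 in lower case, followed in capitals by what each form reads next. They are given in mm10 on the plus strand of chromosome 16, starting at base 91393884. Ifnar2-201 goes on into exon 8, of which the first 60 bases are shown. Ifnar2-203 reads past the splice site to a stop codon at base 91393951. Ifnar2-202 skips the 128 bases of exon 8 and joins the last exon, reaching a stop codon at base 91403744.
Ifnar2-201: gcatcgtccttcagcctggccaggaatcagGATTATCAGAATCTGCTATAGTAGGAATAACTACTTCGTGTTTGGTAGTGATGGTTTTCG
Ifnar2-203: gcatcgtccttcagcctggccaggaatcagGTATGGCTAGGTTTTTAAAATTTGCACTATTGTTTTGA
Ifnar2-202: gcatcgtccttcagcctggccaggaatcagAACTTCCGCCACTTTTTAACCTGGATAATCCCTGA

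Ifnar2-201 encodes 513 codons, Ifnar2-203 248 and Ifnar2-202 247. Soluble forms of Ifnar2 made by alternative splicing are known in the mouse. In the protein read from Ifnar2-201, the most hydrophobic window of 19 residues after the first 40 lay at residues 243 to 261, with a mean Kyte-Doolittle hydropathy of 2.4. In the short forms, the same search found no window above 1.16, at residues 103 to 121. The stretch encoded after exon 7 in Ifnar2-201 is thus the one absent from both short forms.

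Ifnar2-203 had 146.62, 101.24, 206.89 and 180.06 TPM, and Ifnar2-201 had 31.74, 42.66, 44.89 and 45.99 TPM. The short form was the higher one in all 4 libraries and made up 77.9%, 65.1%, 76.4% and 74.3% of the gene's TPM. The kallisto-layout tables put its share at 80.1%, 68.9%, 76.9% and 76.0%. Ifnar2-203 is the shorter RNA (1099 against 3047 bases), so its part of the gene's expected counts was smaller, at 55.6%, 39.4%, 53.7% and 50.4%. Ifnar2-202 stood far lower, at 2.74, 3.51, 8.61 and 6.78 TPM. Ifnar2-204 and Ifnar2-205, with 117 and 48 annotated codons, had means of 7.53 and 1.27 TPM.

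**Figure D2:**
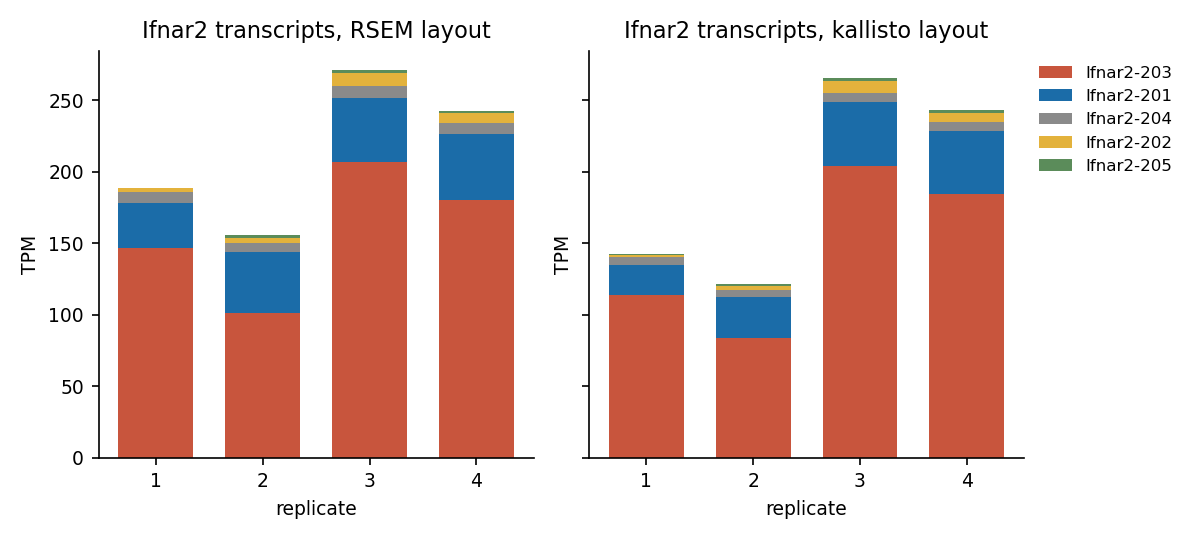
TPM of the 5 annotated Ifnar2 transcripts, stacked per replicate (x axis), in the tables of RSEM layout (left) and of kallisto layout (right). Ifnar2-203 fills most of each bar, between 101.24 and 206.89 TPM in the RSEM layout, and Ifnar2-201 lies between 31.74 and 45.99 TPM.

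When only transcripts with the longest coding sequence of each gene were counted, Ifnar2 was the lowest chain and not the highest. This reading was added after the transcript values had been seen. On it, Ifngr2 had 92.4 ± 18.0 TPM (SD, n = 4), Ifngr1 74.4 ± 12.8, Ifnar1 60.8 ± 8.36 and Ifnar2 41.3 ± 6.54. The ratio of Ifnar1 over Ifnar2 became 0.55 ± 0.34 on the log2 scale. Ifnar2 lay below Ifngr1 at -0.83 ± 0.44 and below Ifngr2 at -1.14 ± 0.13. All 3 had the same sign in the 4 libraries (p = 0.125 each, exact sign-flip permutation test, the smallest possible), opposite to the sign over all transcripts. The kallisto-layout tables gave 0.58, -1.01 and -1.21. Of the neighbours in this order, Ifnar1 exceeded Ifnar2 in every library, whereas Ifngr1 and Ifngr2 changed places between libraries. Ifnar1 was below Ifngr1 in 3 of 4 libraries, and in all 4 in the kallisto-layout tables (-0.43 ± 0.34). Ifnar1 was below Ifngr2 in all 4 libraries in either quantification (-0.59 ± 0.33, and -0.62 ± 0.33 in the kallisto layout; p = 0.125 each, exact sign-flip permutation test).

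**Figure D3:**
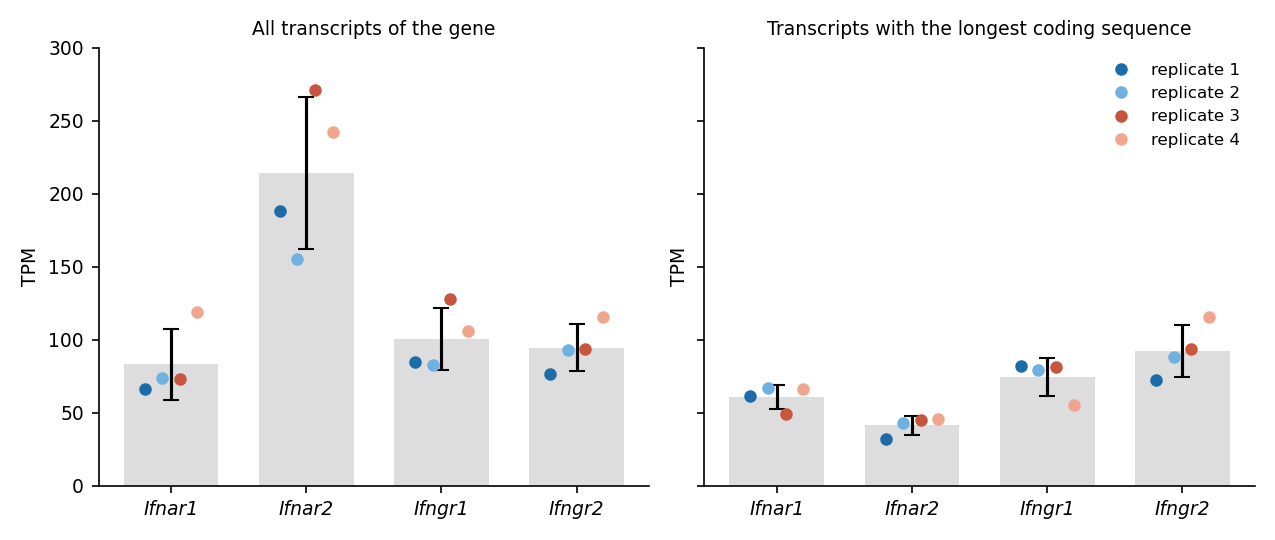
TPM of the 4 receptor genes over all transcripts (left) and over the transcripts with the longest coding sequence (right), on the same axis; bars are means, error bars SD and points the 4 replicates. Ifnar2 stands at 214 TPM on the left, the highest of the 4 genes, and at 41.3 TPM on the right, the lowest.

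In 3 other receptor genes, a minor transcript separated replicates 3 and 4 from replicates 1 and 2. What share of all transcripts separates in this way was not determined. The clearest case was Ifngr1-203, annotated as a target of nonsense-mediated decay, the pathway that removes RNAs with early stop codons. It lacks the last 14 bases of exon 2. The junction of exons 2 and 3 is shown (mm10, plus strand, spliced from chr10:19597487-19601349). Capitals mark the missing bases in Ifngr1-201 and the stop codon that the shifted frame reaches in Ifngr1-203.
Ifngr1-201: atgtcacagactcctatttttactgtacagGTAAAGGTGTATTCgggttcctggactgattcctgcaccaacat
Ifngr1-203: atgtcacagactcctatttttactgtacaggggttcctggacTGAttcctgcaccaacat

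Ifngr1-203 had 1.52, 0.67, 45.74 and 49.90 TPM in replicates 1 to 4. The coding form Ifngr1-201 had 82.15, 79.07, 81.10 and 55.23 TPM, and only its replicate 4 was set apart, on the low side. In replicates 3 and 4 the shortened form thus made up 35.7% and 47.0% of the gene's TPM, against 1.80% and 0.809% in replicates 1 and 2. The kallisto-layout tables gave Ifngr1-203 1.17, 0.970, 32.5 and 31.1 TPM, or 1.97%, 1.57%, 26.0% and 30.2% of the gene's TPM. In that layout Ifngr1-201 had 57.8, 57.2, 89.9 and 69.7 TPM, higher in replicates 3 and 4. The low replicate 4 of the coding form thus depended on the quantification. Ifngr1-201 has 477 codons and Ifngr1-203 has 75.

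The second case was Ifnar1-206, a processed transcript without a coding sequence, which keeps only the last 8 bases of exon 6. The sequences run from the end of exon 5 to the start of exon 7 (mm10, plus strand, spliced from chr16:91495503-91499433). Capitals mark the 110 bases of exon 6 that Ifnar1-206 lacks, and, in Ifnar1-206, the bases it keeps. Exon 6, the kept piece and exon 7 begin with the same 4 bases.
Ifnar1-201: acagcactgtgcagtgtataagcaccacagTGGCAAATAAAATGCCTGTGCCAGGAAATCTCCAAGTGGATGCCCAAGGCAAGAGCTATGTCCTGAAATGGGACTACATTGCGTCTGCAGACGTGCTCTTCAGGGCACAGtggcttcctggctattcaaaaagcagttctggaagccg
Ifnar1-206: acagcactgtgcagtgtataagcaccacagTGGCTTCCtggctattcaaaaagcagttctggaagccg

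Ifnar1-206 was listed at 0 in replicates 1 and 2 and had 19.19 and 45.26 TPM in replicates 3 and 4. The kallisto-layout tables, however, gave it 8.71, 6.16, 18.1 and 48.5 TPM, so its absence from replicates 1 and 2 depended on the quantification. Its 543 bases turn few counts into many TPM: the 45.26 TPM of replicate 4 came from 513 of the gene's 10263 expected counts. The coding form Ifnar1-201 had 54.84, 60.49, 42.48 and 54.65 TPM, with replicate 4 within the range of the others, so that the high gene level of replicate 4 lay in other transcripts in that table. In the kallisto layout it had 40.4, 45.1, 43.7 and 57.3 TPM, with replicate 4 the highest. Ifngr2-202, another short transcript annotated as a target of nonsense-mediated decay, went the opposite way, with 4.64, 4.13, 0 and 0 TPM, or 31.2, 41.6, 5.10 and 3.62 TPM in the kallisto layout.

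**Figure D4:**
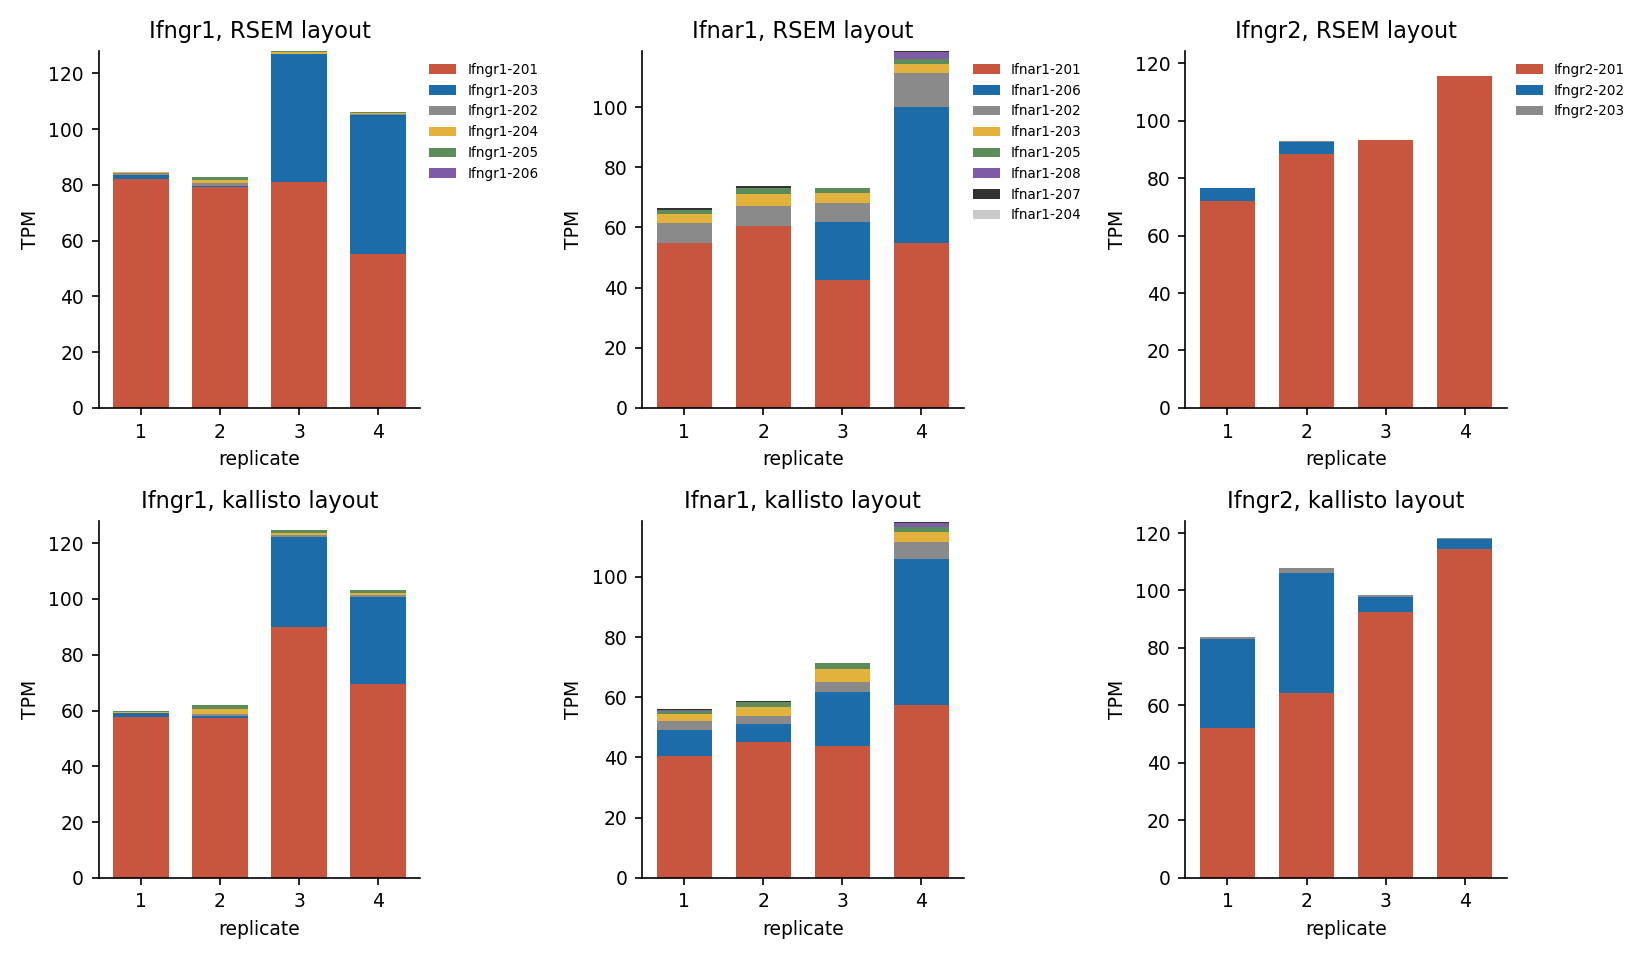
TPM of the annotated transcripts of Ifngr1, Ifnar1 and Ifngr2 (columns), stacked per replicate (x axis), in the tables of RSEM layout (top) and of kallisto layout (bottom). Ifngr1-203 lies at 1.52 TPM or less in replicates 1 and 2 and at 45.74 TPM or more in replicates 3 and 4 in the RSEM layout, and Ifngr2-202 is visible mainly in replicates 1 and 2.

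The libraries were compared with edgeR's quasi-likelihood test, as replicates 3 and 4 over replicates 1 and 2. This compares libraries that differ in the number of listed read files, not conditions. Earlier results of these data, known when the split was chosen, had shown a difference along it. The shares called are therefore no independent evidence of a separation. Of 13264 genes tested, 5.5% passed an adjusted p of 0.05, 1.88% higher and 3.61% lower in replicates 3 and 4. Of the 8 genes, 5 passed the filter on low counts, and 0 of those 5 passed the test, while Ifna4, Ifng and Ifnlr1 did not pass the filter. At an unadjusted p under 0.05 there were 2, Ifnb1 and Ifnar2, beside 3638 of all genes. Ifnb1 had a log2 fold change of -2.10 (SE 0.58, adjusted p = 0.0844). DESeq2, which called 14.2% of genes (6.42% higher, 7.75% lower), called 1 of the 8, Ifnb1, lower in replicates 3 and 4 (adjusted p = 0.0104). So did edgeR without the filter, at 11.7% of genes (5.51% higher, 6.16% lower; adjusted p = 4.85e-05). Ifnar2 had 0.51 (SE 0.19, adjusted p = 0.155), Ifngr1 0.46, Ifngr2 0.39 and Ifnar1 -0.11, the last with the opposite sign (0.09) without replicate 3. The median of the 5 was 0.39, beside -0.02 over all genes tested.

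Over transcripts, the same fit was made after their values had been seen. Of 33888 transcripts tested, 4.33% were called by edgeR, 2.67% higher and 1.66% lower in replicates 3 and 4. The genes have 27 annotated transcripts, of which 14 were tested and 2 called, both higher. Ifngr1-203 had a log2 fold change of 5.48 (SE 0.55, adjusted p = 0.0229), and 4.47 in the kallisto-layout counts (adjusted p = 0.0229). Ifnar1-206 passed at an adjusted p of 0.0368 in the first table, where its fold rests on 2 libraries at 0, and did not pass in the second (1.84, adjusted p = 0.199). Ifngr2-202 passed in the kallisto-layout counts, where 2.65% of transcripts were called, 1.37% higher and 1.29% lower. Its log2 fold change there was -3.31 (adjusted p = 0.0337), beside an adjusted p of 0.0539 by edgeR and 0.0021 by DESeq2 in the RSEM layout. DESeq2 called 5178 of the 69161 transcripts it fitted in that layout, 4 of them transcripts of these genes. The main Ifnar2 forms did not pass: Ifnar2-203 had 0.66 (SE 0.33) and Ifnar2-201 0.37 (SE 0.16). The short Ifnar2-202 had 1.37 (SE 0.28), with an adjusted p of 0.0687 by edgeR and 0.00107 by DESeq2. Without replicate 1 or replicate 2, no transcript of any gene passed in edgeR, although 7886 and 8186 had an unadjusted p under 0.05, and the adjusted p of Ifngr1-203 was 0.0632 and 0.0569. Without replicate 3 or 4 it stayed called (0.0311 and 0.0406), and Ifnar1-206 kept its call only without replicate 3 (0.0311; 0.0698 without replicate 4). The part of depth, read files or mitochondrial share in these transcript differences was not tested.

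Signalling components next to the receptors were expressed in all libraries. All 8 listed genes had at least 10 TPM on average. By edgeR and by DESeq2 0 were called, beside 5.5% and 14.2% of all genes. By edgeR 1 had an unadjusted p under 0.05, Tyk2, as did 3638 of the 13264 genes tested. Stat2, which passes on type I and type III signals, had 435 ± 20.8 TPM (SD, n = 4). Irf9, which binds DNA in a complex with Stat2, had 78.0 ± 7.32 TPM. Of the kinases, Jak1 had 89.1 ± 17.0 TPM, Jak2 64.2 ± 9.39 and Tyk2 54.4 ± 16.2. Stat2 was thus above each of the 8 interferon and receptor genes in every library, and the mean levels of the kinases lay near that of Ifnar1.

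Among 9 genes listed as brakes on interferon receptors or linked to them, 2 were called lower in replicates 3 and 4 by edgeR (3.61% of all genes were) and 0 higher. Socs1, which blocks the receptor kinases, had 13.85, 17.48, 1.46 and 1.37 TPM (log2 fold change -3.43, SE 0.19, adjusted p = 0.0110). Replicates 1 and 2 were high and replicates 3 and 4 low, as for Ifnb1. Isg15, a ubiquitin-like protein that the brake Usp18 removes from its targets, had 3743, 3529, 1434 and 1179 TPM (-1.49, SE 0.25, adjusted p = 0.0366). Its call was lost with offsets for GC content and length (adjusted p = 0.0606). Isg15 is also on the list of interferon targets below, so its call counts in both lists. Usp18, which also displaces Jak1 from Ifnar2, had 360 ± 161 TPM and Ptpn6, a phosphatase, 436 ± 67.8. DESeq2 called 4 of the 9 lower, beside 7.75% of all genes. By edgeR, fewer of the 9 were called without replicate 3 or replicate 4, and more without replicate 2.

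Of 12 genes on the path from Tlr4 to Ifnb1, 0 were called by edgeR, beside 5.5% of all genes. By edgeR 2 had an unadjusted p under 0.05, as did 3638 of the 13264 genes tested. DESeq2 called 1 higher and 1 lower, beside 6.42% and 7.75% of all genes. Irf7, which amplifies interferon alpha transcription and is itself induced by interferon, led at 2163 ± 548 TPM. Irf1 had 227 ± 51.2 TPM and Ikbke, a kinase of the Irf factors, 220 ± 47.5. These levels stood beside a mean of 5.93 TPM for Ifnb1 and 0 for Ifna4.

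Targets of the receptors were abundant. The 14 genes induced by type I and type III interferon had a median of 845 TPM, and 13 of them at least 100 TPM. Ifit2, which binds viral RNA, had 2751 ± 499 TPM, Isg15 2471 ± 1352 and Ifit3 2310 ± 738. In replicates 3 and 4 over replicates 1 and 2, 13 of the 14 had a negative log2 fold change, with a median of -0.51, beside -0.02 over all genes. The share of all genes with a negative sign was not counted. The 14 share their inducers, so their signs are not independent observations. Only Isg15 was called lower by edgeR, beside 3.61% of all genes. DESeq2 called 5 lower, beside 7.75% of all genes. By edgeR, Isg15 lost its call without replicate 1, replicate 3 or replicate 4, and more of the 14 were called without replicate 2. The 12 targets that respond mainly to interferon gamma had a median of 142 TPM. They were led by the guanylate-binding protein gene Gbp2 (1032 ± 89.8), the GTPase gene Irgm1 (561 ± 34.2) and Cd74, the class II invariant chain (488 ± 145). None of the 12 was called by edgeR, and 4 had an unadjusted p under 0.05, as did 3638 of the 13264 genes tested. DESeq2 called 1 higher and 1 lower, beside 6.42% and 7.75% of all genes. The median log2 fold change of the 12 was 0.19. Several genes of either list respond to both kinds of interferon, so the lists do not separate the ligands.

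**Figure D5:**
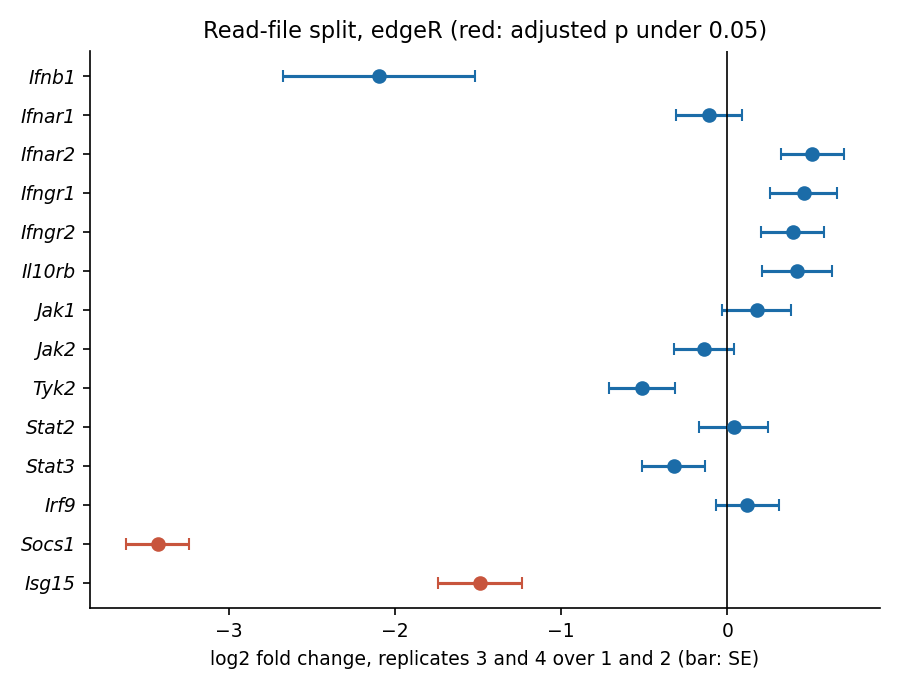
Log2 fold change of replicates 3 and 4 over replicates 1 and 2 (x axis, edgeR; bars are SE) for the 5 interferon and receptor genes tested, 7 signalling genes and the 2 called genes of the brake list. Socs1 at -3.43 and Isg15 at -1.49 (red) pass an adjusted p of 0.05; Ifnb1 at -2.10 does not.

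The genes whose levels were most like those of a receptor chain over the 4 libraries were found by the root mean square difference of log2(TPM + 1) among nuclear protein-coding genes outside the lists. For Ifnar1 they were Hp1bp3 (0.105) and Polr2m (0.146), both also highest in replicate 4. Ifnar2 was nearest to Timp2 (0.123), a protease inhibitor, and H2-T24 (0.137). Ifngr1 was nearest to Fxr1 (0.0786) and Zcrb1 (0.0920), and Ifngr2 was near Ppp3r1 (0.0716), the regulatory subunit of calcineurin. These are likenesses of level over 4 libraries and are given as a description.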

How the data were processed

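PolyA-selected RNA was measured in 4 libraries of 1 group. For each library the authors deposited expected counts and TPM per gene and per transcript, in columns laid out as RSEM writes them, and estimated counts and TPM per transcript in columns laid out as kallisto writes them. The notes deposited with them name mm10 and GENCODE M21; which programs made the tables is not given in the sources used here. The deposited TPM sum to the same total in every library, and the deposited expected counts are not normalized, per the file headers. Gene rows were joined to GENCODE M21 (55536 genes; 97 spike-in and 26248 tRNA rows were left out). The members, the gene lists and the split of the libraries were chosen with earlier results of these data known.

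Expected counts were rounded and fitted over all genes in edgeR 4.0.16 under R 4.3.3 (quasi-likelihood test, TMM, genes kept by filterByExpr at its minimum count of 10, Benjamini-Hochberg threshold 0.05), with DESeq2 1.42.0 as the alternative. A fold change sets replicates 3 and 4 over 1 and 2 on the log2 scale, a split by the number of listed read files. On simulated counts (13030 genes) the edgeR fit recovered 42.0% of genes changed by 1 and 86.0% of those changed by 2 on the log2 scale. Over 31692 transcripts it recovered 5.10% and 29.2%. Features with the fewest counts were left unchanged there, and the simulated spread followed the trend over all features. Ifnb1 varied more than this trend (biological coefficient of variation 0.410 against 0.333). These shares are therefore not the power for single genes. Receptor pairs were log2((TPM a + 1)/(TPM b + 1)), tested by exact sign-flip permutation. Counts of single genes carry 95% exact Poisson intervals. Promoters were RefSeq's (GRCm38.p6), exons and coding sequences GENCODE M21's, and hydropathy was computed on translations made with Biopython 1.88. Named were all members; the 3 genes of highest TPM and all called genes of each list; Il10rb, the Jak kinases, Stat2, Irf9 and Socs1; the leading marker of each cell type; neighbours and overlapping genes; and the 2 genes nearest in level to each receptor. Siglech, Cox6a2 and the transcripts, which lie outside that rule, were named with their values in view. Some genes that the rule picks are not reported here. The fits were repeated with another tool, normalization, filter, pseudocount or quantification, with offsets for GC content and length, and without each replicate.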

Additional observations from a re-analysis of the deposited data

Results flagged for a closer look

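Of 56 sets of 4 values checked, 4 held a library far from the other 3 (Dixon's test at 95%, which flags about 1 in 20 sets by chance). Ifnar1 had its highest level, 118.7 TPM, in replicate 4, and so had its coding transcript Ifnar1-202 at 11.29 TPM. Irf9 was highest in the same library at 88.89 TPM. Ifngr1-201, the coding form of the interferon gamma receptor chain, had its lowest level there, at 55.23 TPM. In the kallisto-layout tables Ifngr1-201 had 57.8, 57.2, 89.9 and 69.7 TPM, with replicate 4 between the others. In TMM-scaled counts of Ifnar1, replicate 4 (175 CPM) lay close to replicate 1 (173 CPM).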

How the results depend on the processing

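No paired analysis was possible because the series has 1 group. With transcripts of the longest coding sequence only, an alternative added after the data were seen, the log2 ratio of Ifnar1 over Ifnar2 turned to 0.55 (0.58 in kallisto TPM), Ifnar2 over Ifngr1 to -0.83 (-1.01), Ifnar2 over Ifngr2 to -1.14 (-1.21) and Ifngr1 over Ifngr2 to -0.31 (-0.19). The last pair was also negative in kallisto gene TPM (-0.28) and without replicate 3 (-0.048; 0.16 without replicate 2). Ifnar1's fold change turned to 0.091 without replicate 3. The cause was not tested.

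The 729 genes called by edgeR became 1848 with DESeq2, 2569 without the filter and 51 to 640 with 1 replicate left out, a fit in which the lone library is assumed to vary like the others. The 8 genes went from 0 called to 1 with DESeq2 and 1 without the filter, Ifnb1 each time, whose adjusted p ranged from 4.85e-05 to 0.251 over the alternatives. The 1466 transcripts called, a test added after the data were seen, became 5178 with DESeq2 and 0 to 852 with 1 replicate left out, and the 2 of the interferon genes became 4 and 0 to 2. Called genes of the brake list went from 2 to 4, and called targets of type I and III interferon from 1 to 5, with DESeq2 or without the filter. With GC and length offsets, where 494 of 13253 genes were called, they became 1 and 0. Of the other alternatives, 212 for single genes and transcripts and 65 for the main comparisons stayed within the limits set for them.

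Ligand values rest on few counts, and short transcripts turn few counts into many TPM. For the receptor pairs, the smallest p that the sign-flip permutation test allows over 4 libraries is 0.125.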
